A study of Homo sapiens with 6 samples.

Results

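The genes described here encode the COPI coat and the machinery that switches its recruiter ARF1 on. They are 10 row IDs (identifiers) of the deposited count table, chosen by ID from 34866 rows: the coat genes Copa, Copb1, Copb2, Copg1, Copg2, Arcn1, Cope and Copz1, and the ARF1 activation genes Gbf1 and Arf1. All libraries carry the label MKN45, an established line from a human stomach carcinoma, which the design text calls Muc6 negative (Muc6 is a gland mucin). One group of 3 libraries received an adenovirus carrying a shRNA (short hairpin RNA) against Golph3, and the other group of 3 received an adenovirus carrying a control shRNA, so all 6 were exposed to virus and all come from 1 line. The labels do not say whether the replicate numbers stand for separate cultures or for different hairpins and give no batch, so the p-values describe the spread among these libraries and nothing beyond it, and that spread may be technical.

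The row IDs are mouse Ensembl IDs, and the submitters' processing notes name the mouse build mm10, although the labels give human cells. Either the reads of human cells were matched to mouse genes or the cells were of mouse origin, and the files cannot tell these apart. The table carries no symbols; the symbols used here were paired with the IDs in the list that chose the genes, and none (0) of the row IDs is in the human gene tables used here. For the same reason the level of Golph3, which would check the knockdown, and the defining markers of the cell line were not analysed here. A fold change sets 1 ID against itself across libraries, so reads that a mouse model fails to collect are missing from both groups. Reads of other genes that an ID collects by error would not cancel in this way, and their share was not tested. A level is not read as the abundance of a transcript. The libraries held 4977645 to 5676169 estimated counts with Golph3 shRNA and 6287037 to 7355140 with control shRNA. Counts of the 10 genes ran from 237 to 5385 per library.

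COPI vesicles carry cargo back from the Golgi to the endoplasmic reticulum and between Golgi cisternae. GBF1 is the exchange factor that loads GTP onto the small GTPase ARF1 at the early Golgi, and membrane-bound ARF1 then recruits coatomer, the preassembled complex of coat subunits. Coatomer has an outer cage-like part (the alpha, beta prime and epsilon subunits, from Copa, Copb2 and Cope) and an inner adaptor-like part (beta, delta, gamma and zeta, from Copb1, Arcn1, Copg1 or Copg2, and Copz1). GOLPH3 binds phosphatidylinositol 4-phosphate on Golgi membranes, the tails of Golgi glycosyltransferases and coatomer, and so helps to keep these enzymes in the Golgi. The comparison asks how the expression of the genes for this coat differs between cells given Golph3 shRNA and cells given control shRNA.

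The coat genes did not change in 1 direction. With Golph3 shRNA, Copa, Copb1 and Arcn1 fell, Cope and Copz1 rose, and Copb2, Copg1 and Copg2 did not pass the test. Of the ARF1 activation genes, Arf1 rose and Gbf1 did not pass. Of all 10 genes, 3 rose, 3 fell and 4 did not pass (edgeR quasi-likelihood F test, called where the p adjusted by Benjamini-Hochberg over 11400 tested IDs was below 0.05; all 10 genes were among those tested). Among all tested IDs, 33.9% were called, 16.1% as higher and 17.8% as lower. Small changes pass more easily at high counts: 9 of the 10 genes, including all 6 that were called, lay among the 3800 most abundant IDs, of which 52.3% were called. A share of 6 in 10 near that background is not a result about these genes, and neither is the even split by direction, since all tested IDs were also called about equally often as higher and as lower. The values of each gene are given below as a description of the complex. The median log2 fold change of the 10 genes was 0.05, and that of all tested IDs was 0.0019. Arcn1, the most reduced of the 10 genes, was 1.38-fold lower, and 17% of all tested IDs had a lower log2 fold change. It did not reach 1.5-fold lower, the size at which 9.13% of all tested IDs were called.

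**Figure D1:**
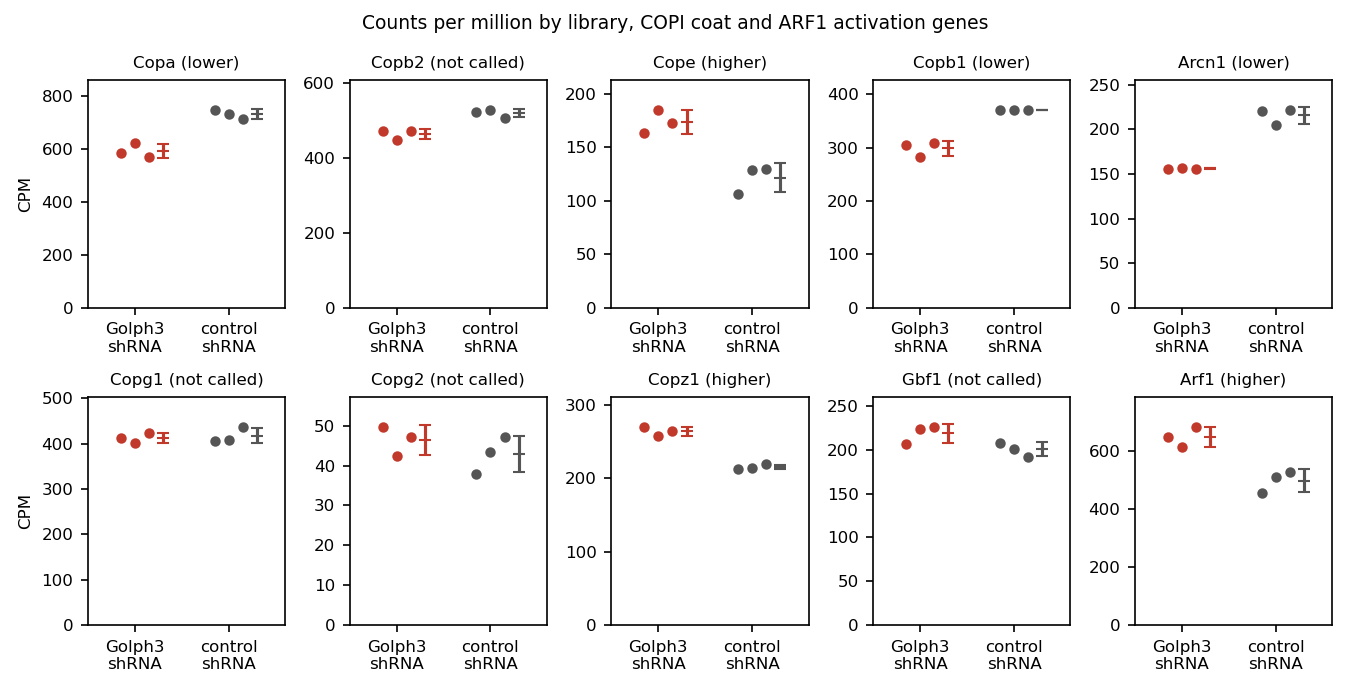
CPM (counts put on 1 library size for all libraries, with trimmed mean factors) of each gene in the 3 Golph3 shRNA libraries (red, left) and the 3 control shRNA libraries (grey, right), with mean and SD beside the points and the call in each title. The groups separate downward for Copa, Copb2, Copb1 and Arcn1, separate upward for Cope, Copz1 and Arf1, and overlap for Copg1, Copg2 and Gbf1.

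The promoters of the human genes of the same names are shown for 6 coat genes, chosen because their groups did not overlap. Since the values made this choice, the place of matches among the printed genes is not a result. Each is the 250 bases before the transcription start, from RefSeq (GRCh38.p14; all 10 symbols matched), written in the direction of the gene. Capitals mark bases within a searched motif. COPA, COPB2, COPB1 and ARCN1 stand first, as the genes whose Golph3 shRNA libraries all lay below the control libraries (Copb2 did not pass the test), and COPE and COPZ1 follow, as those that rose. The printed bases of COPA, COPE and COPZ1 hold no match.
COPA, chr1:160343251-160343500, minus strand: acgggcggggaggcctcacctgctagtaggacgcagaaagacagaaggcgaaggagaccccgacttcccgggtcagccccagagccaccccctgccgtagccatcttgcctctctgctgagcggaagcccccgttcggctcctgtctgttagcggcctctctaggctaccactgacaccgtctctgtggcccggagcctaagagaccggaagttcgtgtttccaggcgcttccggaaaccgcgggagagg
COPB2, chr3:139389648-139389897, minus strand: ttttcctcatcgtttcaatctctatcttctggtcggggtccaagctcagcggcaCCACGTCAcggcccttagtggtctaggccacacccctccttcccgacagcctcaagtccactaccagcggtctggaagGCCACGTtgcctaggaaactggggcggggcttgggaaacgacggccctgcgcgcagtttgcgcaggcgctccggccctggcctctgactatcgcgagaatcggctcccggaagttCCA
COPB1, chr11:14499812-14500061, minus strand: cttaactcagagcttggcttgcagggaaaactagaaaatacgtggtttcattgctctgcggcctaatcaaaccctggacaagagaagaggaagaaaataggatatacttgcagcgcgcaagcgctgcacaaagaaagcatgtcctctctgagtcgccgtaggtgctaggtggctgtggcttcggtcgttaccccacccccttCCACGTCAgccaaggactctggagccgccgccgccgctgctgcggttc
ARCN1, chr11:118572159-118572408, plus strand: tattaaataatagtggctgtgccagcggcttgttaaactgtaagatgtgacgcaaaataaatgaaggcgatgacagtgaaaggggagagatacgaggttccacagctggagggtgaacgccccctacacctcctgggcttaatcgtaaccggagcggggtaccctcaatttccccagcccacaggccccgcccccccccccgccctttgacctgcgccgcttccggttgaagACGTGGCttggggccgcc
COPE, chr19:18919388-18919637, minus strand: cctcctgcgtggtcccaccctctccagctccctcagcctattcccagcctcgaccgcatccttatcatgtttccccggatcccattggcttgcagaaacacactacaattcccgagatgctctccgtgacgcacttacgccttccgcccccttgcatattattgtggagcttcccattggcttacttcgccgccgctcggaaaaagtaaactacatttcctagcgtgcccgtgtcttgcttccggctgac
COPZ1, chr12:54324881-54325130, plus strand: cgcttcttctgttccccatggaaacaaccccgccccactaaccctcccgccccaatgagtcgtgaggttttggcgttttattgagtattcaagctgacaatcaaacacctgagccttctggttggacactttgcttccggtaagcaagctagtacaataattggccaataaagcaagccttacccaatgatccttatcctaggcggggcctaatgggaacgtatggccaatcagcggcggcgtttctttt

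These windows, with the 50 bases after the start, were searched on both strands for letters known from stress response elements. The motifs were TGACGTGG (the core of an unfolded protein response element), ACGTGGC (the core of a Golgi stress element), TGACGTCA (the cAMP response element) and the bipartite endoplasmic reticulum stress element. The first and second can overlap, since they share the letters ACGTGG, but no matches of the 10 genes overlapped. TGACGTGG or its complement lay in the windows of COPA, COPB2 and COPB1. Counted from the start, it began at position 6 in COPA, outside the bases printed, and at -48 in COPB1. COPB2 held it at -196 and at -3, and the printed sequence ends inside the second match. Of 35116 promoter windows of this length, 0.729% held these letters. All windows were taken, without matching to the 10 genes in base content, and enrichment was not tested. ACGTGGC or its complement lay in the windows of COPB2, ARCN1 and COPG1, at positions -118, -18 and -8, and in 3.22% of all windows. The COPG1 promoter is not printed, and Copg1 did not pass the test (log2 fold change -0.02). A link between matches and fold changes was not tested. The windows of COPE, COPZ1, COPG2, GBF1 and ARF1 held none of the 4 motifs, and none of the 10 held TGACGTCA (1.85% of all windows) or the bipartite element (0.0769%). A match describes letters in a human reference sequence; binding to these sites was not measured.

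Within the outer cage, Copa and Cope moved apart. Copa (ENSMUSG00000026553.17), the gene of the large alpha subunit that binds retrieval signals on cargo, had 587, 623 and 569 CPM with Golph3 shRNA, against 749, 734 and 713 CPM with control shRNA. Every Golph3 shRNA library lay below every control library, as did those of 24.2% of all tested IDs. Copa averaged 593 ± 27.2 CPM with Golph3 shRNA and 732 ± 18.1 CPM with control shRNA (SD, n = 3 each), a log2 fold change of -0.30 (SE 0.06, 1.23-fold lower, edgeR adjusted p = 0.0018).

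Cope (ENSMUSG00000055681.14) encodes the epsilon subunit, which binds the alpha subunit. It had 163, 185 and 173 CPM with Golph3 shRNA, against 106, 129 and 130 CPM with control shRNA. All Golph3 shRNA libraries were higher than all control libraries, as in 22.1% of tested IDs, and the lowest value of the control group came from replicate 1. The log2 fold change was 0.51 (SE 0.09, 1.43-fold, edgeR adjusted p = 0.000289), and 13% of tested IDs had a higher one. Without control replicate 1 it was 0.42, and Cope was still called.

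The pair can be set against each other within a library, where no scaling between libraries enters. There were 3.60, 3.37 and 3.30 estimated Copa counts per Cope count with Golph3 shRNA, against 7.04, 5.71 and 5.50 with control shRNA. The mean log2 ratio was 1.77 ± 0.066 with Golph3 shRNA and 2.60 ± 0.191 with control shRNA (SD, n = 3 each), a difference of -0.82. This pair was picked after its values were seen, so the difference is a description with no test.

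Copb2 (ENSMUSG00000032458.6), for the beta prime subunit, the other propeller protein of the cage, narrowly missed the threshold. It had 471, 448 and 471 CPM with Golph3 shRNA, against 524, 529 and 507 CPM with control shRNA. The groups did not overlap, with the Golph3 shRNA libraries below the control libraries. The log2 fold change was -0.17 (95% interval -0.30 to -0.03, edgeR adjusted p = 0.0532). Copb2 was called lower with DESeq2 (adjusted p = 0.0444), with limma-voom (adjusted p = 0.0408) and with edgeR scaled by library totals alone (adjusted p = 0.0341). Over its 16 alternatives the adjusted p ran from 0.0341 to 0.151 and the log2 fold change from -0.19 to -0.15.

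**Figure D2:**
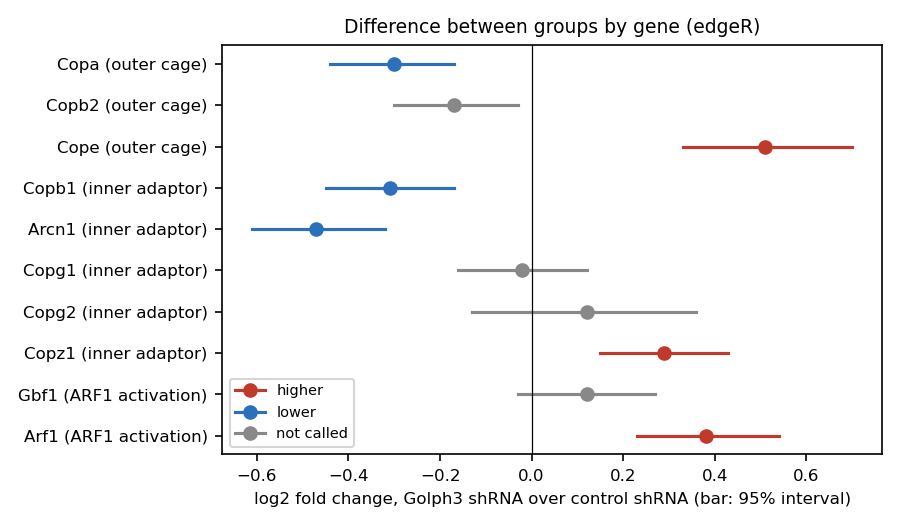
Log2 fold change of each gene, Golph3 shRNA over control shRNA, with its 95% interval from the edgeR fit, ordered by place in the coat and coloured by call. Both parts of the coat hold genes on either side of 0, from Arcn1 at -0.47 to Cope at 0.51.

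In the inner adaptor part, Arcn1 and Copb1 fell and Copz1 rose. Arcn1 (ENSMUSG00000032096.16), the gene of the delta subunit, had 156, 157 and 156 CPM with Golph3 shRNA, against 221, 205 and 222 CPM with control shRNA. The Golph3 shRNA libraries were nearly identical to one another, and all lay under the control libraries. The log2 fold change was -0.47 (SE 0.07, 1.38-fold lower, edgeR adjusted p = 8.92e-05), and 17% of tested IDs had a lower one. The Arcn1 estimates had a fractional part in all 6 libraries, from 771 to 878 estimated counts with Golph3 shRNA and from 1409 to 1504 with control shRNA. Fractional estimates can come from reads divided between gene models, and how they arose here was not tested.

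Copb1 (ENSMUSG00000030754.9), for the beta subunit, had 305, 283 and 309 CPM with Golph3 shRNA, against 371, 370 and 371 CPM with control shRNA. Here the control libraries were the closely grouped ones, and the Golph3 shRNA libraries all lay below them. Its log2 fold change of -0.31 (SE 0.07, 1.24-fold lower, edgeR adjusted p = 0.0017) was close to that of Copa, whose counts are for a subunit of the other part of the coat.

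Copz1 (ENSMUSG00000060992.9) encodes zeta 1, the small subunit that pairs with gamma. It had 270, 257 and 265 CPM with Golph3 shRNA, against 213, 214 and 219 CPM with control shRNA. The groups did not overlap and the Golph3 shRNA libraries were the higher ones. The log2 fold change was 0.29 (SE 0.07, 1.23-fold, edgeR adjusted p = 0.00256).

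The genes of the alternative gamma subunits did not pass the test. Copg1 (ENSMUSG00000030058.17) had 413, 402 and 423 CPM with Golph3 shRNA, against 407, 409 and 437 CPM with control shRNA, and the groups overlapped. Its 95% interval for the log2 fold change, -0.16 to 0.12, was centred near 0 (-0.02, edgeR adjusted p = 0.855). Copg2 (ENSMUSG00000025607.15) had 49.7, 42.4 and 47.3 CPM with Golph3 shRNA, against 38.0, 43.5 and 47.1 CPM with control shRNA. With 237 to 319 counts per library it had the lowest counts of the 10 genes and the widest interval, -0.13 to 0.36 around 0.12 (edgeR adjusted p = 0.466). Single libraries moved its log2 fold change. Leaving out control replicate 1 gave 0.03, leaving out Golph3 shRNA replicate 1 gave 0.06, and leaving out control replicate 3 gave 0.18.

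These paralogs were set against each other as estimated Copg1 counts per Copg2 count in each library. This ratio of counts is not read as a ratio of transcripts. It was 8.31, 9.48 and 8.92 with Golph3 shRNA, against 10.7, 9.40 and 9.28 with control shRNA, and the groups overlapped. The mean log2 ratio was 3.15 ± 0.095 with Golph3 shRNA and 3.29 ± 0.116 with control shRNA (SD, n = 3 each), and the difference of -0.14 gave p = 0.3 in an exact two-sided permutation test, which cannot go below 0.1 with 3 against 3. With so few libraries this test could not pass 0.05 whatever the values. The difference was -0.07 without control replicate 1 and -0.09 without Golph3 shRNA replicate 1.

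A view that does not depend on scaling between libraries sets each coat gene against the mean log2 CPM of all 8 coat genes in the same library. On this relative scale Cope differed by 0.56 and Copz1 by 0.34 between Golph3 shRNA and control shRNA libraries. Arcn1 differed by -0.42, Copb1 by -0.27, Copa by -0.26 and Copb2 by -0.12. Copg1 differed by 0.02 and Copg2 by 0.16. The share of all tested IDs with as large a difference on this scale was not computed. The 4 genes whose Golph3 shRNA libraries all lay below the control libraries on this scale are those of alpha, beta, beta prime and delta. The 2 whose libraries all lay above are those of epsilon and zeta 1. For Copg1 and Copg2 the groups overlapped, although the difference of Copg2 was larger in size than that of Copb2. These differences are relative to one another by construction and show unequal change within the coat, not which genes stayed constant.

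**Figure D3:**
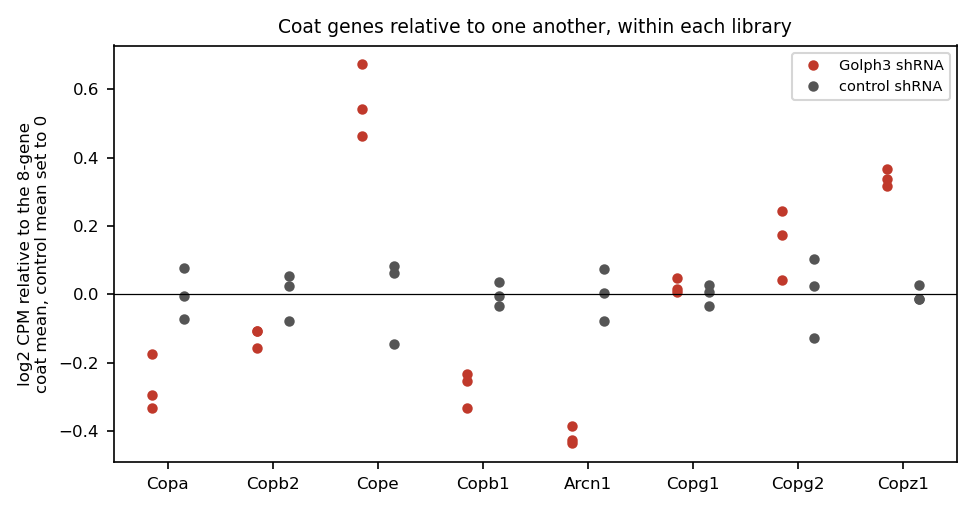
Log2 CPM of each coat gene relative to the mean of the 8 coat genes in the same library, with each gene's control mean set to 0; points are the 3 Golph3 shRNA libraries (red, left) and the 3 control shRNA libraries (grey, right). Cope and Copz1 lie above their controls by 0.56 and 0.34 on average, and Copa, Copb2, Copb1 and Arcn1 lie below theirs.

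Summed over the 8 coat genes, the level was 2415, 2397 and 2413 CPM with Golph3 shRNA, against 2630, 2633 and 2647 CPM with control shRNA. The Golph3 shRNA sum was 8.65% lower, and the groups did not overlap (SD 9.41 CPM with Golph3 shRNA and 8.99 CPM with control shRNA). Sums over other genes were not computed, and the groups of 46.3% of single tested IDs did not overlap either. Of the 8 genes in the sum, 3 were called lower and 2 higher. The outer cage genes summed to 1230 ± 22.6 CPM with Golph3 shRNA and 1374 ± 21.4 CPM with control shRNA (SD, n = 3 each). The inner adaptor genes summed to 1179 ± 31.8 CPM with Golph3 shRNA and 1263 ± 29.7 CPM with control shRNA. A sum of counts weighs long and abundant transcripts most, and Copa alone gave 23.6% to 26.0% of the coat counts with Golph3 shRNA and 26.9% to 28.5% with control shRNA. Cope gave 6.75% to 7.71% with Golph3 shRNA and 4.05% to 4.90% with control shRNA. In bulk RNA, a shift in the mix of cells and a change of RNA per cell cannot be told apart.

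Among the genes that switch the coat on, Arf1 rose. Arf1 (ENSMUSG00000048076.14), the GTPase that brings coatomer to the membrane, had 650, 615 and 684 CPM with Golph3 shRNA, against 455, 511 and 530 CPM with control shRNA. All Golph3 shRNA libraries were higher than all control libraries. It averaged 650 ± 34.4 CPM with Golph3 shRNA and 499 ± 39.3 CPM with control shRNA (SD, n = 3 each), a log2 fold change of 0.38 (SE 0.07, 1.30-fold, edgeR adjusted p = 0.000791). Arf1 estimates had a fractional part in 5 of the 6 libraries. Other ARF family genes are close in sequence to Arf1, and if reads were divided between them the Arf1 value is uncertain.

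Gbf1 (ENSMUSG00000025224.14), the exchange factor for ARF1, had 206, 224 and 226 CPM with Golph3 shRNA, against 208, 201 and 192 CPM with control shRNA. The groups overlapped, since Golph3 shRNA replicate 1 lay just below the highest control value. The log2 fold change was 0.12 (95% interval -0.03 to 0.27, edgeR adjusted p = 0.192). Estimated Arf1 counts per Gbf1 count were 3.15, 2.75 and 3.03 with Golph3 shRNA, against 2.18, 2.54 and 2.76 with control shRNA, and the groups overlapped.

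**Figure D4:**
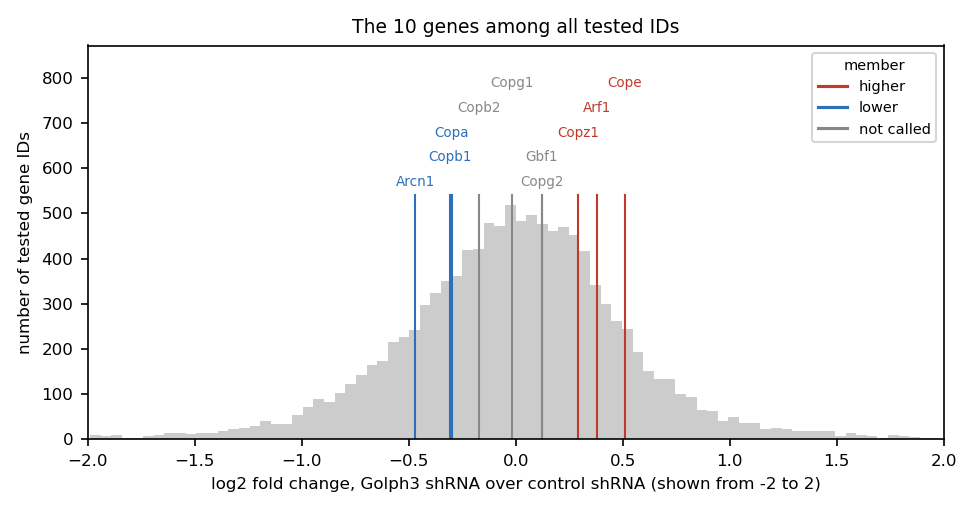
Number of tested IDs by log2 fold change, Golph3 shRNA over control shRNA, shown from -2 to 2, with the 10 genes as lines coloured by call. The called genes stand on the shoulders of the distribution, whose quartiles are at -0.32 and 0.30, and not in its tails.

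Set among all tested IDs, the changes of this coat were moderate. The quartiles of the log2 fold change over all IDs were -0.32 and 0.30. The median level of those IDs was 24.5 CPM, below that of each of the 10 genes. Quartiles of the most abundant IDs alone were not computed. Arcn1 lay below the lower quartile, and Cope and Arf1 lay above the upper one. Copa, Copb1 and Copz1 lay just inside the quartiles. Of the 10 genes, 7 had groups that did not overlap, 3 above and 4 below the control libraries, against 46.3% of all tested IDs in either direction. That share was not computed for the most abundant IDs alone. The count of 7 is therefore a description and not a result about these genes.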

How the data were processed

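The file the authors deposited holds unscaled estimated counts by mouse gene ID, with 1 column for each library. The build mm10 is named per the submitters' processing notes; the aligner, quantifier, annotation release and strand setting were not given in the sources used here. Per the labels' protocols, libraries were made with a stranded messenger RNA kit.

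Estimated counts were rounded, IDs were kept with filterByExpr (11400 of 34866, holding 99.7% to 99.8% of the counts) and groups were compared over the whole table with edgeR 4.0.16 in R 4.3.3 (trimmed mean factors, quasi-likelihood F test, Benjamini-Hochberg adjustment, call below 0.05). SEs were obtained from the log2 fold change and its F statistic. Relative log2 CPM used a prior count of 2; ratios used unrounded estimates. Alternatives were DESeq2 1.42.0, limma-voom (limma 3.58.1), other scalings and filters, unrounded counts, thinned libraries, a replicate block and each library left out. All 10 genes are named, whether called or not. The members, lists and motifs were chosen with earlier results of these data known. A planned list of other coat and transport genes by symbol was not analysed here, since the IDs carry no symbols. Replicates differed by more than sampling noise (chi-square per ID 3.29 to 6.52), so none was merged.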

Additional observations from a re-analysis of the deposited data

How the results depend on the processing

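The 6 called genes were called in the same direction in each of the 16 alternatives, and Copg2, Copg1 and Gbf1 in none of them. Of the 10 genes, 3 were called higher throughout, and 3 or 4 were called lower. The fourth was Copb2, with DESeq2 (log2 fold change -0.16), limma-voom (-0.17) and library totals alone (-0.18). The log2 fold change of Copg1, -0.02, ran from -0.04 to 0.01 with a library left out, and was 0.01 without control replicate 3 (edgeR adjusted p = 0.945). The median over the 10 genes stayed between 0 and 0.06. No scaling moved the median of all tested IDs by more than 0.014. With each library left out in turn, calls over all tested IDs numbered 1425 to 1665 upward and 1644 to 1929 downward, against 1840 and 2030 with all libraries, and the log2 ratio of Copg1 to Copg2 differed by -0.18 to -0.07. Libraries with equal replicate numbers had deviations from their group mean that correlated at 0.032, 0.09 and 0.044, against -0.086 to 0.037 for unlike numbers. With so few libraries these values cannot settle whether the numbers mark pairs. The numbers were not taken as pairs, since the labels do not say that they are. For Golph3 shRNA libraries the best match was always the equally numbered control, but for control 1 it was Golph3 shRNA replicate 3. With the replicate block 1842 IDs were higher and 2045 lower, and of the 10 genes 3 were higher and 3 lower. Depth limits Copg2 most, with 237 to 319 counts per library.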
